A study of Homo sapiens with 12 samples.

Results

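Immediate early genes are the first genes that a cell transcribes after a growth factor, a stress or a depolarising signal, without the need for new protein. Their promoters are held ready by factors that are already present, such as SRF with its ELK partners and CREB, which kinases of the MAPK family switch on. Many of the products are themselves transcription factors, and both the mRNAs and the proteins are as a rule short-lived. In cultured cells the same genes also respond to fresh serum, to handling and to stress of the endoplasmic reticulum.

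The 10 genes described here are *FOS*, *FOSB*, *JUN*, *JUNB*, *EGR1*, *IER2*, *IER3*, *ARC*, *MYC* and *GADD45B*, and all 10 were found by symbol among the 23292 symbols of the deposited tables. The genes were chosen by symbol, with earlier results of these data known, and which measured values entered that choice is not stated. The authors' own comparison columns were not used here. The RNA came from HEK293T cells, a human embryonic kidney line that the culture notes call HEK293. Cells were treated for 6 h with DMSO as vehicle, or with AA263, AA263yne or AA263-5 at 10 µM. There were 3 samples in each of the 4 groups and 12 in all. AA263 is a phenylhydrazone that activates the ATF6 arm of the unfolded protein response, AA263yne carries an alkyne in place of its nitro group, and AA263-5 is a further analog.

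One measurement per gene was usable, the mean of its normalised read values over all 12 samples, vehicle and compounds together. The 3 tables hold the same means. The level in each group and the spread between replicates were therefore not analysed here, and nothing below compares a compound with vehicle or with another compound. A gene that is high in 1 group and low in the rest has the same mean as one that is even across them. In bulk RNA, a change in the number of cells and a change in RNA per cell would also not be told apart. The total reads of each sample were not analysed, so no counting interval is given, and the order of genes with close levels cannot be judged against their error. The line's own markers were present, with means of 18800 for vimentin (*VIM*) and 2225 and 3786 for the neurofilament genes *NEFL* and *NEFM*, while *PAX2* was low at 27.7. Of the 8 markers of other cell types, 7 had means of 0.32 to 4.79, and the collagen gene *COL1A1* had 398.

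The values of the 10 genes are given first as deposited, with no division by length made here. *JUN*, the founding member of the JUN side of the AP-1 factor, had a mean normalised value of 8924. *MYC*, which drives growth and ribosome synthesis, had 6418. *EGR1*, a zinc finger factor, had 713.5, and *IER2*, a small nuclear protein, had 586.8. *JUNB* had 474.3, and *GADD45B*, which binds stress-activated kinases, had 312.2. *IER3*, a regulator of cell survival, had 236.0, and *ARC*, known for its role at synapses, had 211.2. *FOS* and *FOSB*, both partners of JUN in AP-1, had 97.3 and 79.6. All 10 genes thus passed a mean of 10, as did 67.1% of all symbols. At a mean of 100 there were 8 genes, against 49.98% of all symbols, and at 1000 there were 2, against 25.9%.

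Low values in the tables repeat exactly between genes. For example, 23 symbols share a mean of 0.389, and 11 and 4 symbols lie at 6/5 and 7/5 of it, to within 2e-06. At 4/5 of it there were 0 symbols. The 6 of these 23 symbols with an annotated transcript had median transcript lengths from 606 to 3135 bases. Low values that repeat across lengths are those of whole counts that were scaled but not divided by length. Values per kilobase that were rounded to whole numbers could repeat as well, and the study's methods describe reads per kilobase. Which of these holds was not tested, and the levels below take the values as not divided. From here on, levels are compared between genes after dividing by the median length of a gene's transcripts in GENCODE 44, or by the longest where that is named. The result is a level per kb, and its percentile is taken among the 14056 symbols with a mean of at least 10 and a known length.

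Per kb, the list fell into a high pair and a remainder below it. *MYC* stood at 3143 per kb, the 89.4th percentile, and *JUN* at 2740 per kb, the 87.9th percentile. With the longest transcript as the divisor *MYC* was at 1725 and *JUN* again at 2740, so the order within this pair depends on the divisor. Next came *GADD45B* with 548.7 per kb, or 227.7 by its longest transcript. *IER2* (278.1), *JUNB* (259.2), *EGR1* (227.4) and *IER3* (182.5) lay close together, between the 38.5th and the 46.4th percentile.
The AP-1 genes of the FOS family and *ARC* were at the bottom. *FOS* had 116.6 per kb, or 46.2 by its longest transcript. *ARC* had 71.6 and *FOSB* 23.1, the 24.8th and the 12.3rd percentile. *JUN* was thus 23.5 times as high as *FOS* per kb of median transcript and 59.3 times per kb of longest transcript. Within the JUN family, *JUN* was 10.6 times as high as *JUNB* by either divisor. The median level of the 10 genes was 243.3 per kb, beside 338.2 for all symbols with a mean of at least 10. The side on which the list falls depends on the setting, since its median percentile was 43.7 here, 52.0 with the longest transcript as the divisor and 55.9 among all symbols with a length.

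**Figure D1:**
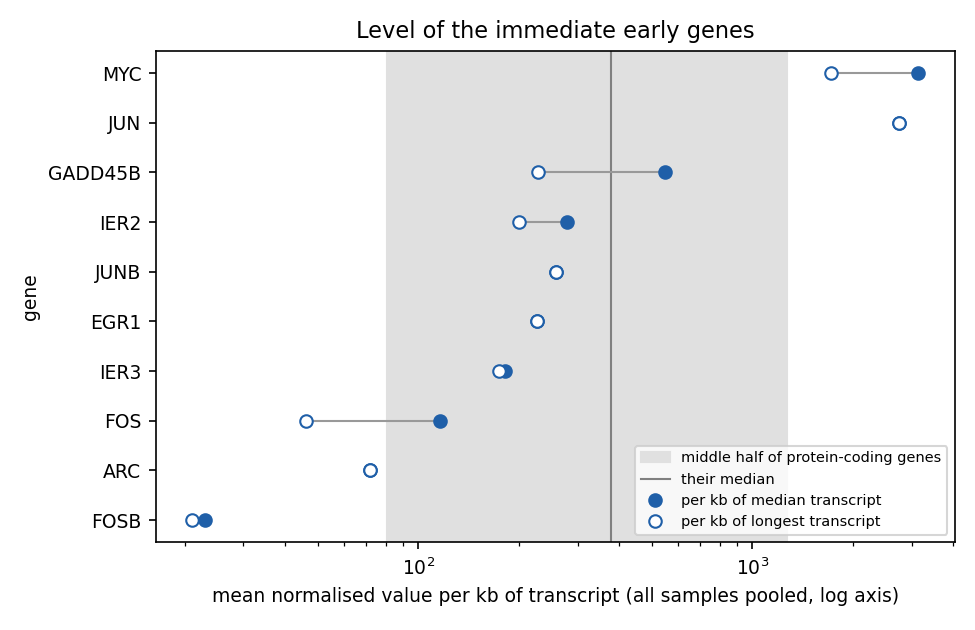
Mean normalised value per kb of transcript (x axis, log scale, all 12 samples pooled) for each of the 10 genes (y axis), by median transcript length (filled) and longest transcript length (open), with the interquartile range (grey) and median (line) of 13145 protein-coding genes with a mean of at least 10, both by median transcript length and so to be read against the filled points. The filled points of MYC and JUN lie above the grey range, which runs from 80.9 to 1271, and those of FOSB and ARC below it.

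Some of these values may include reads from a neighbour on the other strand. The libraries were made with strand marking, but whether the counting used strand is not given in the sources used here. In GENCODE 44, 5 of the 10 genes overlap a gene on the opposite strand. *FOSB* overlaps *ERCC1*, *JUNB* overlaps *HOOK2*, *MYC* overlaps *CASC11*, *IER3* overlaps *HCG20* and *IER3-AS1*, and *IER2* overlaps 2 unnamed genes. If strand was not used in the counting, reads from a stretch shared by exons of both genes could not be assigned to 1 of them. The extent of the overlaps was not measured here. *IER3-AS1* and the 2 unnamed genes were not found among the deposited symbols. *FOS*, *JUN*, *EGR1*, *ARC* and *GADD45B* have no such neighbour.

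AP-1 is a dimer, so the levels of the other possible partners are of interest. Of 13 further AP-1 and related bZIP genes, 12 were in the tables and 11 had a mean of at least 10, with a median of 88.6 per kb. *ATF3*, a stress-induced bZIP repressor, was the highest at 3831 per kb, followed by *ATF7* at 996.7 and *ATF2* at 987.8. The median transcripts of *ATF3* and *ATF7* are short, at 680 and 817 bases, and the order depends on this divisor. The undivided means were 2605 for *ATF3*, 1989 for *ATF2*, 1024 for *JUND* and 814.3 for *ATF7*, all below the 8924 of *JUN*. *JUND*, the third JUN gene, had 842.8 per kb, between *JUN* and *JUNB*. The other FOS genes were low, as *FOS* and *FOSB* were, with 61.4 per kb for *FOSL1* and 30.8 for *FOSL2*. The lowest were *MAFF* with 12.0 and *BATF2* with 5.81.

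The list of 30 other immediate early genes had a median of 91.8 per kb, and 29 of them had a mean of at least 10. *ATF3*, which is also on the list above, and *TRIB1*, a pseudokinase gene, were the highest with 3831 and 3093 per kb. By undivided mean, *SRF* was the highest with 6775, above *TRIB1* with 4358 and *ATF3* with 2605. *SRF* is also on the list of upstream regulators below. The paralogs of *EGR1* were all far lower than *EGR1* itself, with 28.0 per kb for *EGR3*, 14.1 for *EGR2* and 1.4 for *EGR4*. *EGR4* and *EGR2* were also the lowest of this list. *IER5* and *IER5L*, relatives of *IER2*, had 157.7 and 86.1 per kb.

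The list of upstream regulators, which holds kinases and transcription factors, had a median of 708.8 per kb, beside 243.3 for the members. Whether they act on the members in these cells was not tested. All 22 had a mean of at least 100, against 49.98% of all symbols. The ERK gene *MAPK3* and the kinase gene *MAP2K2* above it in the pathway were the highest, with 8749 and 7320 per kb. The lowest were the kinase genes *RPS6KA5* with 132.8 and *MAPK8* with 240.1.

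*MYC* acts as a dimer with MAX, and *MAX* had 3931 per kb of median transcript beside 3143 for *MYC*. The order depends on the divisor, since the undivided means were 3526 for *MAX* and 6418 for *MYC*. Per kb, the second highest of the 10 further genes of this network was *MXD4*, an antagonist of MYC, with 1391. Its undivided mean of 5385 was above that of *MAX*. The paralogs of *MYC* were low, with 27.5 per kb for *MYCL* and 3.30 for *MYCN*, the lowest of the network, followed by *MXD1* with 6.16. In the GADD45 family, *GADD45B* had 548.7, *GADD45A* 251.1 and *GADD45G* 9.89 per kb of median transcript, and the longest transcript was not tried for the paralogs.

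**Figure D2:**
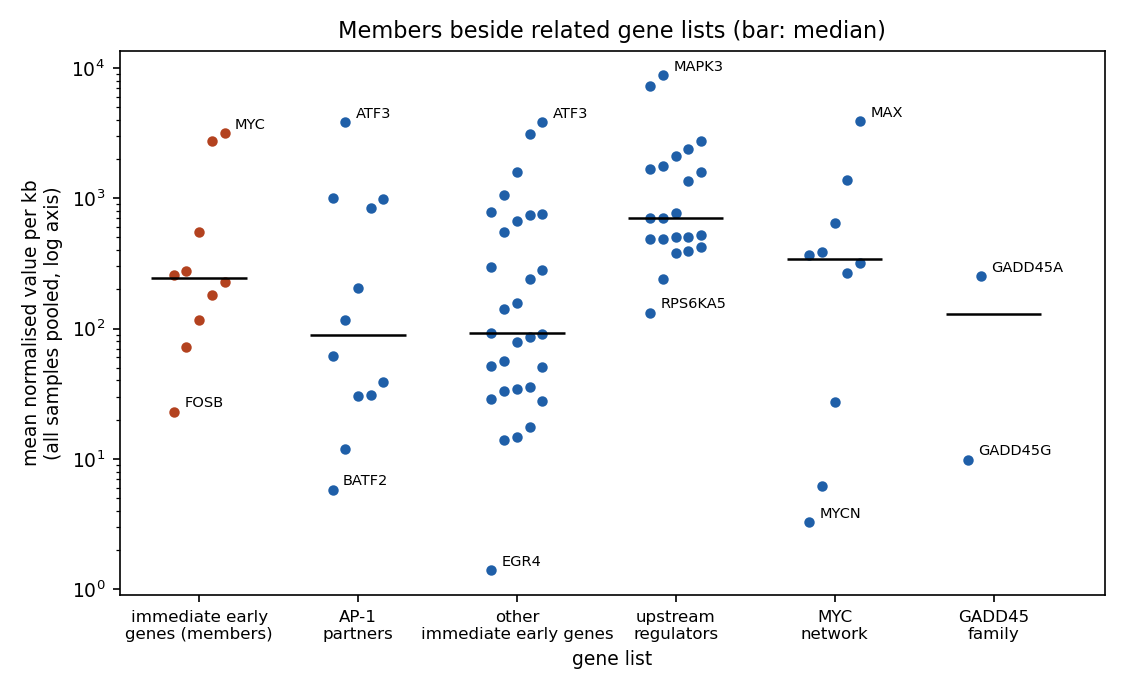
Mean normalised value per kb of median transcript (y axis, log scale, all 12 samples pooled) for the members and for each related gene list (x axis), with 1 point per gene, a bar at the list's median and the highest and lowest gene named. The members' median of 243.3 lies between that of the other immediate early genes, 91.8, and that of the upstream regulators, 708.8.

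The 10 genes also share a compact structure, which does not rest on any measured value. All 10 span under 10 kb in GENCODE 44, from 1350 bases (*IER3*) to 7518 (*MYC*), against 18.6% of the 13145 protein-coding genes with a mean of at least 10, whose median span was 34550 bases. *JUN* and *JUNB* have 1 exon, as do 2.25% of those genes, and 5 of the 10 have at most 2 exons, against 7.10%. Mature length differed less, with a median canonical transcript of 2530 bases beside 3402. In GRCh38 coordinates of that annotation, *FOS* lies at chr14:75278826-75282230 on the plus strand, *EGR1* at chr5:138465479-138469303 on the plus strand, *JUN* at chr1:58776845-58784048 on the minus strand and *IER3* at chr6:30743199-30744548 on the minus strand. Chromosome 19 holds 4 of the 10, against 7.12% of protein-coding genes. These are *GADD45B* at chr19:2476122-2478259, *JUNB* at chr19:12791486-12793315, *IER2* at chr19:13150411-13154911 and *FOSB* at chr19:45467995-45475179, all on the plus strand. *IER2* begins 357.1 kb after the end of *JUNB*. *MYC* and *ARC* both lie on chromosome 8.

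AU-rich elements in the 3′ untranslated region mark many unstable mRNAs, and the pentamer ATTTA is their core. The list was mixed in this respect. *MYC* and *IER3* hold 6 copies each, *FOS* 5, *JUN* and *FOSB* 3, *JUNB* 2 and *EGR1* 1. *IER2*, *ARC* and *GADD45B* hold 0. At least 1 copy was thus found in 7 of 10 genes, against 73.0% of 13128 protein-coding genes. Per kb of this region the median of the 10 genes was 1.86 copies, beside 1.70 for the protein-coding genes, and the densest were *IER3* with 8.14 and *FOS* with 6.20. The longer form TATTTAT was found in 5 of 10 genes, against 36.1%, and *IER3* had 4 copies of it.

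The promoters show which factors' motifs lie near the start. RefSeq windows of 250 bases before to 50 bases after the start were on hand for 7 of the 10 genes, namely *FOS*, *FOSB*, *JUN*, *JUNB*, *EGR1*, *IER2* and *GADD45B*. The 5 windows that hold a CArG box or a TATA box are printed below for the 250 bases before the start, 5′ to 3′ on the strand of the gene. They come from GRCh38.p14, at chr5:138465229-138465478 for *EGR1*, chr14:75278578-75278827 for *FOS*, chr19:45467746-45467995 for *FOSB*, chr19:12791236-12791485 for *JUNB* and chr19:2475877-2476126 for *GADD45B*, all on the plus strand. Capitals mark a CArG box, a CRE core (TGACG), an EGR site (GCGNGGGCG), CCAAT or TATAAA, on either strand.
EGR1: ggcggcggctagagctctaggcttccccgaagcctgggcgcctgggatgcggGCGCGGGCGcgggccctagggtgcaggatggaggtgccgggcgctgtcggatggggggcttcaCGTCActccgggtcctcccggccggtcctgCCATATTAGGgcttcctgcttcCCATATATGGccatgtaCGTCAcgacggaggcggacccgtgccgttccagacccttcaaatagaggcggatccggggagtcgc
FOS: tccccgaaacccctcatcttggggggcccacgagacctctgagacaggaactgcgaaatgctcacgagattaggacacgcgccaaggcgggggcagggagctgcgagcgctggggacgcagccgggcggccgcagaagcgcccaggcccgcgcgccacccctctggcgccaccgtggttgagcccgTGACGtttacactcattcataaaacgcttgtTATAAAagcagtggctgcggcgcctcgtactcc
FOSB: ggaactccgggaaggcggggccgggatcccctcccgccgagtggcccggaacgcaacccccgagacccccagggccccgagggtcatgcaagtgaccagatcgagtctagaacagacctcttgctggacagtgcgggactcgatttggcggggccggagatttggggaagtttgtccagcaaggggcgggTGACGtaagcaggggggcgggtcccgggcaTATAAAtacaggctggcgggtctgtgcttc
JUNB: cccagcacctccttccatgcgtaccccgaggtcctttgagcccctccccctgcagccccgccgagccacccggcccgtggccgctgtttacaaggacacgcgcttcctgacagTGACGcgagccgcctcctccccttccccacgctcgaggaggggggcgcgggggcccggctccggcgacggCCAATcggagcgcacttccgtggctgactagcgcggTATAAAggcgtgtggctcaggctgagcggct
GADD45B: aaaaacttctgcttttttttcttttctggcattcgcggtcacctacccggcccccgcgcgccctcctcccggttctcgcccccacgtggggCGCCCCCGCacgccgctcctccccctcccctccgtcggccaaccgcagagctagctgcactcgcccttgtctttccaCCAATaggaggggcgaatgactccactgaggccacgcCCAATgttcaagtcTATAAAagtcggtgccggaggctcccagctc

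The CArG box, the letters that SRF binds, was found in 1 of the 7 windows, that of *EGR1*, and in 1.03% of the 11689 windows of genes with a mean of at least 10. *EGR1* has 2 of them, which begin at -105 and -83, counted from the start of transcription. Only the bases of these windows were searched. TATAAA was found in 4 of 7 windows against 6.01%, and begins between -33 and -30 in *FOS*, *FOSB*, *JUNB* and *GADD45B*. The CRE core was found in 6 of 7 windows, all but that of *GADD45B*, against 33.5%. It begins at -64 in *FOS* and at -60 in *FOSB*, and *EGR1* has 2 copies.
The full CRE (TGACGTCA), which contains the CRE core, was found in 0 of 7 windows against 3.23%. The AP-1 site (TGAGTCA) was in 0 of 7 against 3.10%. The ATF6 motif (TGACGTGG), which also contains the CRE core, was in 0 of 7 against 0.924%. The EGR site was in 2 of 7 windows, those of *EGR1* itself and *GADD45B*, against 15.4%. CCAAT was in 3 of 7 against 36.1%, and the GC box, GGGCGG, in 4 of 7 against 68.2%. Both strands were searched for each motif. A match in letters is not evidence of binding, and 7 windows allow no more than these counts. The GC content of the windows was 61.7% to 71.0%, around the median of 65.0% of expressed genes.

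**Figure D3:**
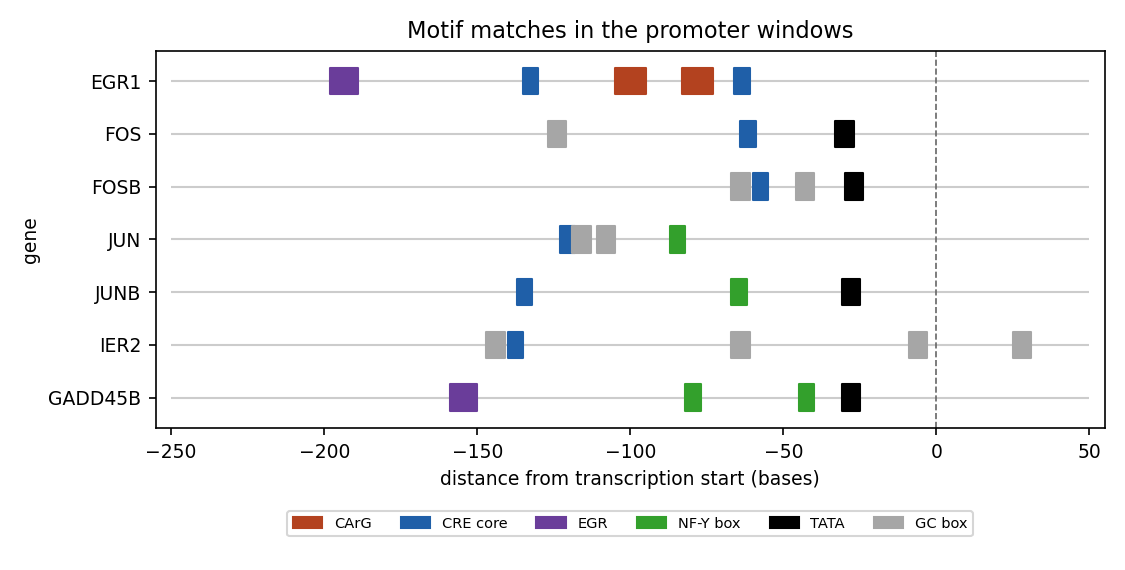
Position of each motif match (x axis, bases from the start of transcription, marked by the dashed line) in the promoter windows of 7 genes (y axis), coloured by motif, with CCAAT shown as the NF-Y box. The black TATA boxes of FOS, FOSB, JUNB and GADD45B line up near the start, and the pair of red CArG boxes is in EGR1.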

How the data were processed

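RNA of 12 samples (3 each of DMSO, AA263, AA263yne and AA263-5) was sequenced as paired-end reads. The authors aligned them with SeqManPro to GRCh38.p7, quantified them with ArrayStar and QSeq and fitted them with DESeq2 (1.40.1 in the submitters' processing notes, which list GRCh38 and GRCh37). The annotation and filters are not given in the sources used here. The deposited signal is a gene's average across the 12 samples after scaling by DESeq2's size factors, and sums to 36.6 M. The remaining deposited columns hold the authors' own comparison of each compound with DMSO (fold change, standard error, statistic and p-values) and were not used. No test was made, since each gene has 1 pooled value.

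The members and lists were chosen with earlier results of these data known. Named genes are the 10 members, the 2 highest and the 2 lowest of each list per kb and paralogs of a member. The others named are the cell type markers, the genes that overlap a member, and *ATF2* and *SRF*, which are given for their undivided means. Transcript lengths came from GENCODE 44, a later annotation than the authors', matched by symbol or by RefSeq synonym for 89.9% of the 15638 symbols with a mean of at least 10. Promoter sequences are RefSeq's on GRCh38.p14, 1 per symbol. Motif search and percentiles were tested on simulated data. Gene structure, overlaps and ATTTA counts were added after the means had been seen. Python 3.11.15, pandas 2.3.3 and matplotlib 3.10.9 were used.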

Additional observations from a re-analysis of the deposited data

How the results depend on the processing

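The median percentile of the 10 genes per kb was 43.7 with the median transcript length, 52.0 with the longest transcript and 55.9 when all symbols with a length were ranked. Single genes moved by up to 11.4 points with the longest transcript and up to 18.0 when all symbols were ranked, and by more than 5 points in 7 and 8 of the 10 genes. The count of genes past the minimum was 10 at a minimum of 10 or 1, and 8 at 100. With only the gene's strand searched, the CRE core was found in 4 windows in place of 6 and the EGR site in 1 in place of 2. Every other motif count of the 9 was the same under that setting, and all 9 were the same with only the bases before the start. No paired analysis was possible because the result comes from no test, and for the same reason no replicate was left out in turn. The depth of each sample was not analysed here.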
